A study of Mus musculus with 6 samples.

Results

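The nuclear-encoded genes of the mitochondrial respiratory chain were taken from the gene tables of islet RNA as the rows whose symbol begins with Nduf, Uqcr, Cox4 to Cox8 or Atp5, or is Sdha, Sdhb, Sdhc or Sdhd. This gave 90 of the 23179 rows. Of these, 36 encode subunits of complex I (7 core and 29 accessory), 4 encode complex I assembly factors of the Ndufaf series, 4 encode complex II, 8 complex III, 19 complex IV and 15 complex V. The 19 include Ndufa4, a complex IV subunit first listed with complex I, and its paralog Ndufa4l2. Whether Ndufa4l2 is itself a subunit was not examined. Cox7a2l, a factor known for joining complexes III and IV into supercomplexes, was kept apart. Whether it does so in the mice used here was not examined. The remaining 3 rows matched by name: Cox4nb is an older symbol of Emc8, a subunit of a membrane protein insertase of the endoplasmic reticulum, and Atp5s and Atp5sl are not counted as subunits. Apart from these 3 rows and Ndufa4l2, the symbols and the known roles of the genes went with the name of the set. Atp5s and Atp5sl, now named Dmac2l and Dmac2, were set aside only as not being subunits. Whether they act in assembly was not examined.

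The respiratory chain oxidises NADH at complex I and succinate at complex II, passes the electrons through ubiquinone, complex III and cytochrome c to oxygen at complex IV, and pumps protons at complexes I, III and IV. ATP synthase, complex V, uses the proton gradient to make ATP. In pancreatic beta cells a rise in mitochondrial ATP closes ATP-sensitive potassium channels and sets off insulin release, so the chain links glucose oxidation to secretion.

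RNA was sequenced from pancreatic islets of male mice without the free fatty acid receptor Ffar3 (genotype Ffar3-/-, KO) and of male wild-type mice (WT), all on the C57BL/6J strain and 10 to 14 weeks old. Ffar3 is a G protein-coupled receptor for short-chain fatty acids such as acetate and propionate. There were 3 KO libraries and 3 WT libraries, described as biological replicates, and the islets of each came from 2 pooled pancreata. How the Ffar3 allele was made, and whether WT animals were littermates, is not stated in the labels.

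The values were read as FPKM, fragments scaled to transcript length and to the number of mapped fragments, although the tables name no unit and the scaling between libraries is not known. They summed to 416935, 698280 and 1056340 in KO1, KO2 and KO3, against 451899, 429148 and 444624 in WT1, WT2 and WT3. Ins1 was listed at 0, 43721 and 48334 in KO1, KO2 and KO3 and at 0 in the WT libraries, and Ins2 at 0 in all. Ffar3 itself was listed at 0, 0 and 0.105 FPKM in KO1, KO2 and KO3, against 4.69, 5.26 and 6.68 FPKM in WT1, WT2 and WT3. Read depth is not known, but the step between low values put the fragments behind 1 FPKM at 119%, 89.4% and 59.6% of WT1 in KO1, KO2 and KO3, against 108% and 114% in WT2 and WT3. Markers of acinar cells, the digestive enzyme cells that surround islets, took 6.47%, 38.7% and 54.4% of summed FPKM in KO1, KO2 and KO3, against 10.0%, 6.74% and 9.12% in WT1, WT2 and WT3. All 30 acinar rows were tested and none passed, and 2 had an unadjusted p under 0.05. KO2 and KO3 therefore stood apart from the other 4 libraries. KO1 lay within or just below the WT range for this list. Counts for KO1 alone against WT, given beside the main counts, come from a fit in which the lone KO library is assumed to vary like the WT libraries. The summed level of 17 beta cell markers was 37026, 30183 and 33913 FPKM in the KO libraries and 40265, 38492 and 38760 FPKM in the WT libraries. Of these 17, 10 (58.8%) were called lower in KO, against 19.6% of all tested genes. Alpha cell markers summed to 13671, 9352 and 7289 FPKM in KO1, KO2 and KO3 and to 19925, 24131 and 20902 FPKM in WT1, WT2 and WT3, and delta cell markers to 4640, 2737 and 2581 FPKM in the KO libraries and 5324, 5375 and 5096 FPKM in the WT libraries, so that both lists were lower in every KO library. Immune markers summed to 116, 200.5 and 61.9 FPKM in the KO libraries and 82.9, 75.4 and 83.7 FPKM in the WT libraries, and no immune row was at 0 in KO, against 3 at 0 in each WT library. The part of these cell types in the results below was not tested. In bulk RNA, fewer cells of a type and less RNA per cell cannot be told apart.

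Fewer of the respiratory chain genes than of all tested genes passed the test in KO against WT islets. Of the 90, 86 had a mean of at least 1 FPKM and were tested with limma on log2(FPKM + 1), with Benjamini-Hochberg adjustment over all 11669 tested rows. 14 of the 86 passed an adjusted p of 0.05, of which 12 were lower and 2 higher in KO islets. Over all tested genes the background was 39.9% called, with 19.6% lower and 20.3% higher in KO. For the respiratory chain genes the shares were 16.3% called, 14.0% lower and 2.33% higher, so both shares fell below the background. The median log2 difference was -0.10 over these genes and -0.01 over all tested genes. 68 of the 86 differences were negative and 18 positive. All 3 KO libraries lay below all 3 WT libraries for 30 genes (background 28.5%), above them for 3 genes (background 27.8%), and overlapped with them for 53. The count rested on single libraries: it was 4 without WT1, 7 without WT3, 8 without KO2 and 21 without KO1, while the share of all genes called was 21.2% (2482 genes) without WT1, 21.5% (2518 genes) without WT3, 30.1% (3482 genes) without KO2 and 49.1% (5730 genes) without KO1. With array weights 24 were called, of which 21, or 24.4%, were lower, above the background of 22.7% in that fit. With KO1 alone against WT, 7 respiratory chain genes were called against a background of 26.2% of 11488 tested rows, and 6 of these 7 were among the 14. With the mean acinar level as a covariate, 6 were called against a background of 24.8%, all among the 14.

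**Figure D1:**
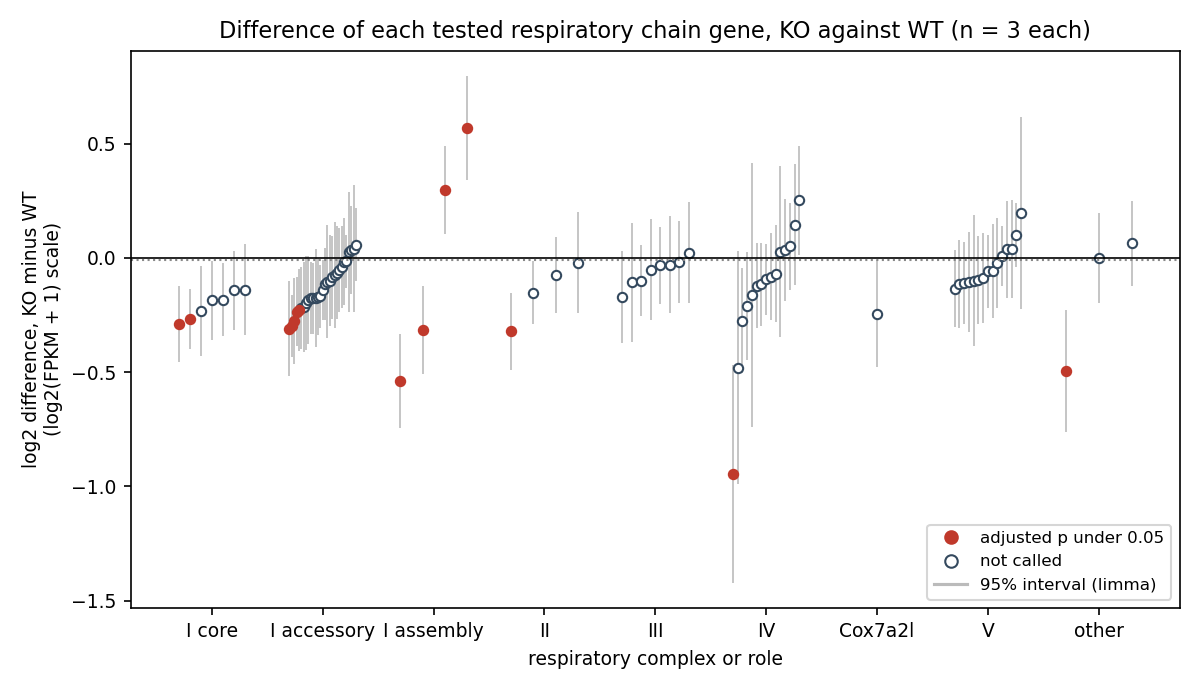
Log2 difference of each tested respiratory chain gene, KO minus WT, on the log2(FPKM + 1) scale, by complex or role, with 95% intervals from limma (n = 3 each). Filled red points passed an adjusted p of 0.05 and the dotted line is the median of all tested genes (-0.01). The 4 complex I assembly factors lie on both sides of 0, the 7 core subunits of complex I all lie below it, and complexes III and V hold no red point.

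Most of these genes were among the more abundant in the islets, and they varied between libraries about as much as other genes. Their median level was 85.1 FPKM, against 9.33 FPKM for all tested genes, and 62 of the 86 were in the top 10% of tested genes by level. The median coefficient of variation was 9.14% between KO libraries and 4.70% between WT libraries, against 9.35% in KO and 5.60% in WT for all tested genes, and the median standard error of the log2 difference was 0.0817, against 0.0867. For 76 of them (88.4%) the 95% interval of the difference lay within 0.5 log2 units on either side of 0, which held for 58.7% of all tested genes. Many genes of the chain have near-identical processed pseudogenes, and how reads shared with such copies were counted is not given in the sources used here.

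Among themselves the KO libraries differed in these genes. KO2 had the lowest value of the 6 libraries for 55 of the 86 genes (64.0%), against 26.7% of all tested genes. KO3 had the highest value for 30 (34.9%), against 23.5% of all tested genes. The median distance from the WT mean was -0.11, -0.21 and -0.03 log2 units in KO1, KO2 and KO3, and 0.035, -0.059 and 0.023 log2 units in WT1, WT2 and WT3. KO3, with the highest acinar share, was thus the KO library nearest to WT. Summed over the 90 rows the level was 8481, 7877 and 9029 FPKM in KO1, KO2 and KO3, against 9223, 8664 and 9190 FPKM in WT1, WT2 and WT3. The groups overlap in this sum, because KO3 lay above WT2. As a share of the FPKM outside acinar and insulin rows the chain took 2.17%, 2.05% and 2.09% in the KO libraries, against 2.27%, 2.16% and 2.27% in the WT libraries, and KO1 lay just above WT2.

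**Figure D2:**
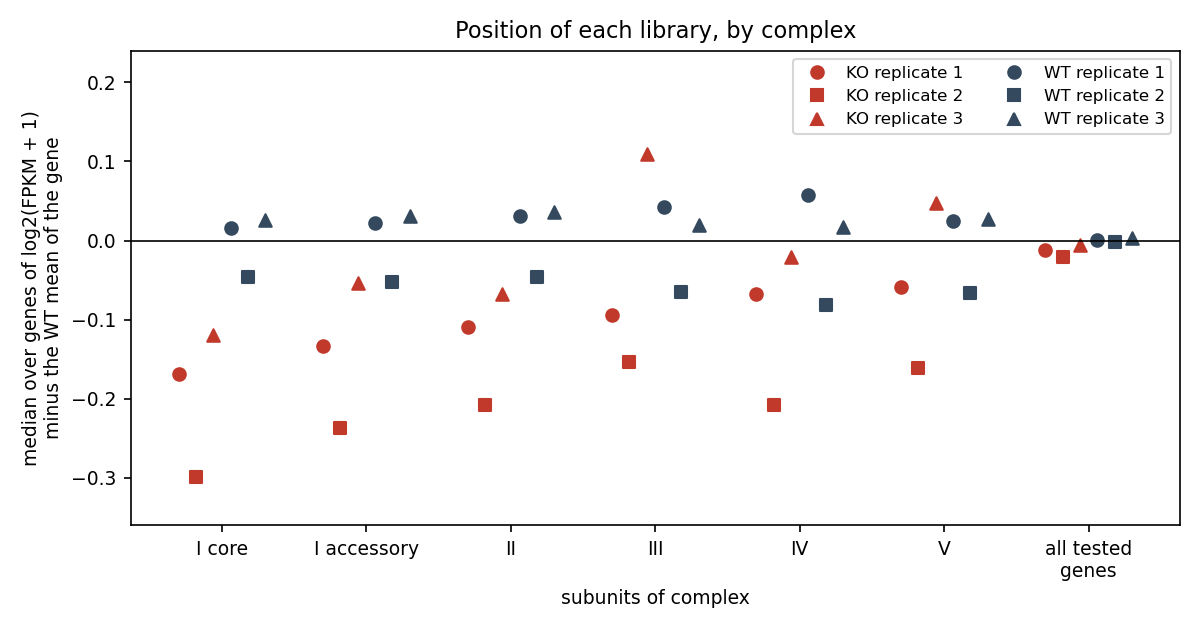
Median over the genes of each complex of log2(FPKM + 1) minus the gene's WT mean, for each library (KO red, WT blue). KO2 (red square) is the lowest library in every complex, and KO3 (red triangle) is the highest for complexes III and V but lies below all WT libraries for the complex I core; over all tested genes the 6 libraries lie close to 0.

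The clearest movement was among the Ndufaf genes, whose products help build complex I and are not part of the finished enzyme. All 4 passed the test, 2 higher and 2 lower in KO islets, and in all 4 the groups did not overlap. Over all tested genes 39.9% passed. All KO libraries lay below all WT libraries in 28.5% of tested genes and above them in 27.8%. Ndufaf1, a chaperone of the assembly complex that builds the membrane arm, had 4.13, 4.98 and 5.37 FPKM in KO1, KO2 and KO3 and 2.96, 2.76 and 3.02 FPKM in WT1, WT2 and WT3. The lowest KO library stood above the highest WT library by more than the whole WT range, and the log2 difference was 0.57 ± 0.097 (SE, limma adjusted p = 0.0054). In KO1 alone it was 0.39 with a limma adjusted p of 0.028. Ndufaf2, a paralog of the subunit Ndufa12 that binds a late assembly intermediate, went the other way. It had 6.94, 6.25 and 7.61 FPKM in KO1, KO2 and KO3 and 11.4, 10.3 and 9.80 FPKM in WT1, WT2 and WT3, a log2 difference of -0.54 ± 0.087 (SE, limma adjusted p = 0.0045). In KO1 alone, the KO library with a low acinar share, the log2 difference was -0.53. The calls of Ndufaf1 and Ndufaf2 were kept in all alternatives run for them, 17 and 18.

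The other two Ndufaf genes moved less and their calls depended on the libraries. Ndufaf3 and Ndufaf4 encode proteins that bind each other and take part in an early step of complex I assembly, and here they moved in opposite directions. Ndufaf4 had 4.44, 5.11 and 4.83 FPKM in KO1, KO2 and KO3 and 4.07, 3.55 and 3.52 FPKM in WT1, WT2 and WT3, a log2 difference of 0.30 ± 0.082 (SE, limma adjusted p = 0.027). Ndufaf3 had 18.6, 16.2 and 15.2 FPKM in KO1, KO2 and KO3 and 21.4, 21.5 and 19.8 FPKM in WT1, WT2 and WT3, a log2 difference of -0.31 ± 0.082 (SE, limma adjusted p = 0.022). KO1 was the KO library nearest to WT in both genes. In KO1 alone the differences were 0.21 for Ndufaf4 (limma adjusted p = 0.18) and -0.16 for Ndufaf3 (limma adjusted p = 0.16), which ended both calls. The acinar covariate also ended both, with limma adjusted p = 0.12 for Ndufaf4 and 0.095 for Ndufaf3. For Ndufaf4 the limma adjusted p was 0.085 without WT2, 0.10 without WT3, 0.074 without KO2 and 0.055 without KO3. For Ndufaf3 it was 0.084 without WT1, 0.073 without WT2 and 0.062 without KO2. Summed over the 4 genes the level was 34.1, 32.5 and 33.0 FPKM in the KO libraries and 39.9, 38.2 and 36.1 FPKM in the WT libraries.

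**Figure D3:**
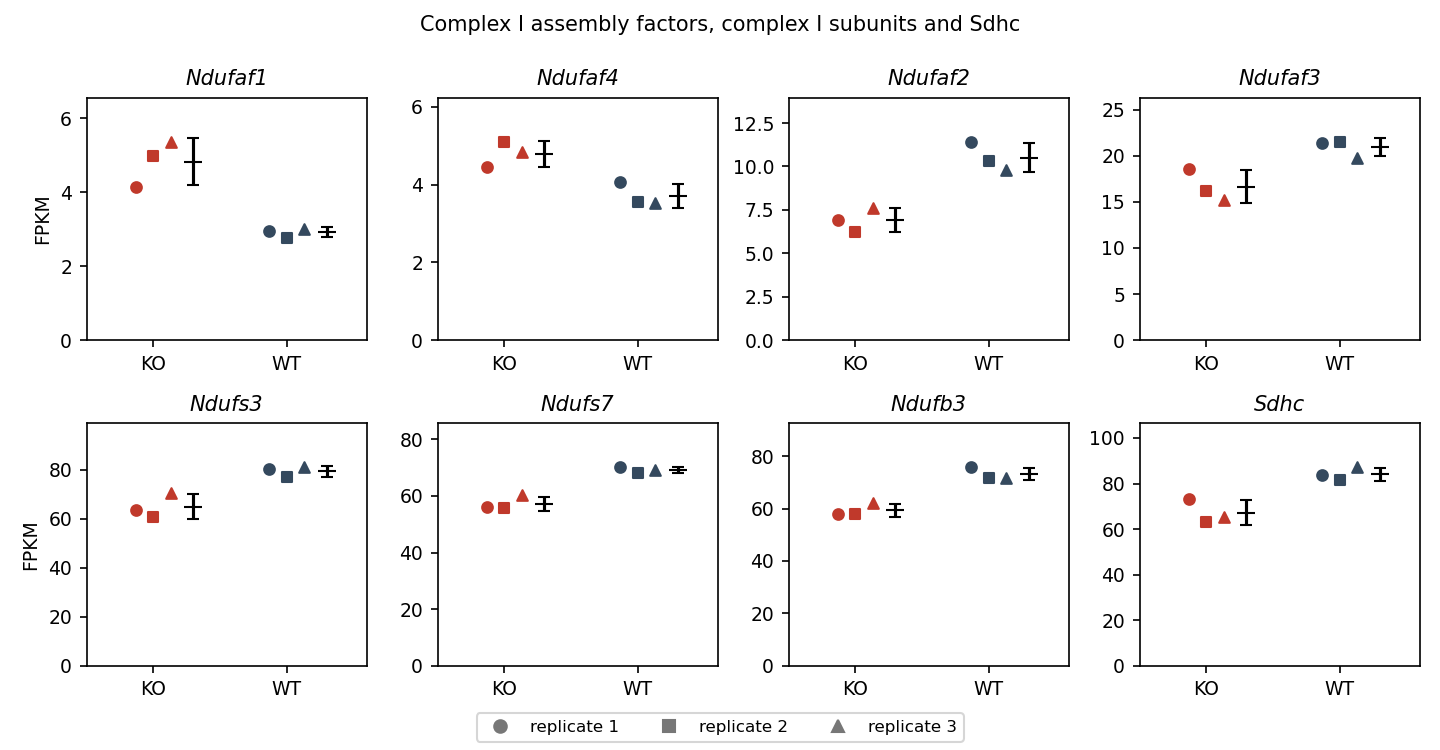
FPKM in each library of the 4 Ndufaf genes, of the complex I subunits Ndufs3, Ndufs7 and Ndufb3, and of Sdhc (KO red, left; WT blue, right; mean ± SD, n = 3 each). Ndufaf1 and Ndufaf4 are higher and the other 6 genes lower in every KO library than in every WT library.

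The promoters of the 4 Ndufaf genes are shown because these genes share a function and moved in opposite directions, and those of the core subunits Ndufs3 and Ndufs7 because both were called lower. Each sequence is the RefSeq window of 300 bases in GRCm38.p6, 250 before and 50 after the transcript start, written 5′ to 3′ on the strand of the gene. Capitals mark matches on either strand to 3 motifs of factors known to act on respiratory chain promoters: GCGCANGCG for nuclear respiratory factor 1 (NRF1), CCGGAAG for the ETS family to which GABP belongs, and AANATGGCG for YY1.
Ndufaf1 (chr2:119662785-119663084, minus strand): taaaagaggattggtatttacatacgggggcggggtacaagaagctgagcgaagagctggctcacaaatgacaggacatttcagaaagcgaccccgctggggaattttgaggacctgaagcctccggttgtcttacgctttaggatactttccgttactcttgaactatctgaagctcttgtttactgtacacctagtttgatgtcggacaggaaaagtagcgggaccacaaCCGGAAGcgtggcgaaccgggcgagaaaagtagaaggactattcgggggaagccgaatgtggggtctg
Ndufaf4 (chr4:24897833-24898132, plus strand): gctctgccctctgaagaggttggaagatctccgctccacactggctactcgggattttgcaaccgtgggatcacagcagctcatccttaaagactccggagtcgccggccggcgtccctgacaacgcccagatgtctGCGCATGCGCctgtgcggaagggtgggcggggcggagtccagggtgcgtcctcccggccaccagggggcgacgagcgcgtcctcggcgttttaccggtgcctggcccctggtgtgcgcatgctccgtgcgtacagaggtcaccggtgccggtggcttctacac
Ndufaf2 (chr13:108158576-108158875, minus strand): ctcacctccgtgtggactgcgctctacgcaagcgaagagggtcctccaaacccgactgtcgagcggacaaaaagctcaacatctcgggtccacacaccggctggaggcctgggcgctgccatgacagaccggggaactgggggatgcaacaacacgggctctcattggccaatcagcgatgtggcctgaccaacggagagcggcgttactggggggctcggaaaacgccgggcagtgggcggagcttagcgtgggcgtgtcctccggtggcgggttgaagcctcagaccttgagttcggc
Ndufaf3 (chr9:108567387-108567686, minus strand): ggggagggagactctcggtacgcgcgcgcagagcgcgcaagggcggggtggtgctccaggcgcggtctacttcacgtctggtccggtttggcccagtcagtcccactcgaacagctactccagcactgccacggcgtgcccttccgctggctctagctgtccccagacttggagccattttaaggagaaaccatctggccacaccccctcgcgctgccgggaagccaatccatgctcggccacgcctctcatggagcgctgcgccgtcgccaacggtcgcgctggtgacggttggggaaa
Ndufs3 (chr2:90904672-90904971, minus strand): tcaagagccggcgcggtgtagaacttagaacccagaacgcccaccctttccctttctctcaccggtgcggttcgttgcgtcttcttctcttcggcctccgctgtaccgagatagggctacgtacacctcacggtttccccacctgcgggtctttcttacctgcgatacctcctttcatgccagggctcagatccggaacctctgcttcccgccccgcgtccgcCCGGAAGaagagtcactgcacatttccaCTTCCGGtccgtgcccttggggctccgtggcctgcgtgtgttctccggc
Ndufs7 (chr10:80249199-80249498, plus strand): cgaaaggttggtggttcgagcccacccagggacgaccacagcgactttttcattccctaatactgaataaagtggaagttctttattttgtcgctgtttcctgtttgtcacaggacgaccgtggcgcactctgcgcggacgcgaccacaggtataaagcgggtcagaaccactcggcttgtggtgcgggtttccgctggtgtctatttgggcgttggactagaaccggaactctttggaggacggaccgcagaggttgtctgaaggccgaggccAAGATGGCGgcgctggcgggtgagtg
The Ndufaf1 window held 1 ETS match. The Ndufaf4 window held 2 NRF1 matches, 1 on each strand at a shared site. The windows of Ndufaf2 and Ndufaf3 held none of the 3 motifs. The Ndufs3 window held 2 ETS matches and the Ndufs7 window 1 YY1 match. Windows were found for 74 of the 90 genes. The NRF1 motif was in at least 1 window of 21 of these 74 genes (28.4%), against 7.03% of all 27025 genes with a window. The ETS motif was in 17 (23%), against 9.93%, and the YY1 motif in 11 (14.9%), against 2.76%. None of the 80 windows of these genes held overlapping matches of different motifs. The NRF1 motif was in 7 of 14 complex V genes, in 1 of 13 complex IV genes and in none of 5 complex I core genes. The most NRF1 matches, 3 in a window, were in Sdha, Ndufb4, Uqcrc1 and Cox6a1, none of which was called. Whether a motif goes with the difference of a gene was not tested. The motifs were chosen after the values were seen, and a match is a run of letters, not evidence of binding.

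Complex I, the entry point for NADH, held most of the lower calls. Of its 36 subunits, 7 were called lower and none higher, 32 had a negative difference, and the median was -0.17 log2 units. In 18 of the 36 all KO libraries lay below all WT libraries, against a background of 28.5%, and in none did they all lie above. At an unadjusted p under 0.05 the count was 17 (47.2%), against 51.5% of all tested genes. The share called lower was 19.4%, beside the background of 19.6%. With KO1 alone 4 of the 36 were called lower (background 11.5%), and with the acinar covariate 3 were (background 10.7%). The count called lower was 1 without WT1 (background 9.32%), 2 without WT3 (9.51%), 3 without KO2 (14.1%), 9 without KO1 (24.3%) and 9 without KO3 (16.8%). Scaling to equal sums of the FPKM outside acinar rows gave 4 (15.5%), and the count was 13, or 36.1%, both with quantile normalization (23.2%) and with array weights (22.7%). Summed over the 36 genes the level was 2513, 2320 and 2643 FPKM in KO1, KO2 and KO3 and 2793, 2645 and 2800 FPKM in WT1, WT2 and WT3. The groups did not overlap, but KO3 and WT2 were almost equal.

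Both called core subunits belong to the arm that carries electrons from NADH to ubiquinone. Ndufs7, which holds the last iron-sulfur cluster before ubiquinone, had 56.0, 55.7 and 60.2 FPKM in KO1, KO2 and KO3 and 70.2, 68.0 and 69.1 FPKM in WT1, WT2 and WT3. The WT libraries agreed closely and every KO library was below them, with a log2 difference of -0.27 ± 0.055 (SE, limma adjusted p = 0.010). Ndufs3, a neighbouring subunit of the same arm, had 63.5, 60.5 and 70.4 FPKM in KO1, KO2 and KO3 and 80.2, 76.8 and 81.0 FPKM in WT1, WT2 and WT3, a log2 difference of -0.29 ± 0.070 (SE, limma adjusted p = 0.017). Both were also called in KO1 alone, at -0.30 for Ndufs7 and -0.32 for Ndufs3 (limma adjusted p = 0.016 for each). Leaving out WT1 ended both calls, with limma adjusted p = 0.053 for Ndufs7 and 0.071 for Ndufs3, and leaving out WT3 ended that of Ndufs3 at 0.072. The core subunits Ndufs1, Ndufs8, Ndufv1 and Ndufv2 had differences from -0.14 to -0.23 log2 units and did not pass. Ndufs8 was nearest, with 27.3, 23.3 and 28.2 FPKM in the KO libraries and 32.2, 29.1 and 31.5 FPKM in the WT libraries (limma adjusted p = 0.062). The median over the core was -0.17, -0.30 and -0.12 log2 units from the WT mean in KO1, KO2 and KO3, and 0.016, -0.046 and 0.026 in WT1, WT2 and WT3.

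Accessory subunits surround the core and are needed for its assembly and stability. Of the 29, 5 were called lower (17.2%, background 19.6%) and none higher, and 25 differences were negative. KO1 alone gave 2 lower and the acinar covariate 1. Ndufb3, a small subunit of the membrane arm, had 57.9, 58.0 and 62.1 FPKM in KO1, KO2 and KO3 and 75.8, 71.8 and 71.9 FPKM in WT1, WT2 and WT3. The gap between the groups was wider than the range of either, and the log2 difference was -0.30 ± 0.057 (SE, limma adjusted p = 0.0079). This call was kept in all 18 alternatives, with -0.33 in KO1 alone (limma adjusted p = 0.014). The other 4 calls were of smaller margin. Ndufc2 had 125, 104 and 111 FPKM in the KO libraries and 150, 132 and 141 FPKM in the WT libraries (log2 difference -0.31, limma adjusted p = 0.030). Ndufa7 had 94.0, 82.9 and 82.1 FPKM in the KO libraries and 112, 98.6 and 103 FPKM in the WT libraries (log2 difference -0.28, limma adjusted p = 0.032). In both genes, and in Ndufa12 and Ndufa2 below, KO1 was the highest KO library. Ndufa12, the finished-enzyme counterpart of Ndufaf2, had 56.2, 52.8 and 52.5 FPKM in the KO libraries and 62.7, 60.3 and 67.7 FPKM in the WT libraries (log2 difference -0.23, limma adjusted p = 0.026). Ndufa2 had 118, 101 and 102 FPKM in the KO libraries and 126, 123 and 127 FPKM in the WT libraries (log2 difference -0.23, limma adjusted p = 0.0496), at the threshold itself.

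None of these 4 accessory calls held in KO1 alone, where the log2 differences were -0.17 for Ndufc2, -0.15 for Ndufa7, -0.17 for Ndufa12 and -0.08 for Ndufa2, with limma adjusted p between 0.15 and 0.33. None held with the acinar covariate either, with limma adjusted p of 0.12 for Ndufc2, 0.14 for Ndufa7, 0.11 for Ndufa12 and 0.20 for Ndufa2. Leaving out WT1, WT3, KO2 or KO3 ended each of the 4 calls. The limma adjusted p without WT1 was 0.11 for Ndufc2, 0.12 for Ndufa7, 0.080 for Ndufa12 and 0.15 for Ndufa2. Without WT3 it was 0.093, 0.091, 0.10 and 0.15 for the same genes in that order, without KO2 0.078, 0.086, 0.065 and 0.12, and without KO3 0.062, 0.076, 0.059 and 0.11. Ndufa2 was also lost without WT2, at 0.0996. Of the 24 accessory subunits that were not called, 8 had every KO library below every WT library, with log2 differences from -0.22 to -0.11: Ndufa8, Ndufb2, Ndufb6, Ndufb7, Ndufb11, Ndufc1, Ndufs4 and Ndufv3. The same held for 28.5% of all tested genes, called or not. Ndufs4 and Ndufc1 were nearest to the threshold (limma adjusted p = 0.054 for each). Others were close to even, such as Ndufa5, which had 40.7, 39.8 and 41.5 FPKM in the KO libraries and 41.5, 40.2 and 41.6 FPKM in the WT libraries, with the 95% interval of its log2 difference from -0.13 to 0.10. These 9 genes were named after their values were seen.

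Complex II, succinate dehydrogenase, belongs to both the respiratory chain and the tricarboxylic acid cycle and has 4 subunits. Sdhc, a membrane anchor that binds haem and ubiquinone, had 73.3, 63.3 and 65.1 FPKM in KO1, KO2 and KO3 and 83.6, 81.5 and 87.2 FPKM in WT1, WT2 and WT3, a log2 difference of -0.32 ± 0.072 (SE, limma adjusted p = 0.013). Every KO library was below every WT library, with KO1 the nearest to WT. The difference was -0.19 in KO1 alone (limma adjusted p = 0.071) and -0.23 with the acinar covariate (limma adjusted p = 0.054), and the limma adjusted p was 0.054 without WT1 and 0.060 without WT3. Sdha, the flavoprotein that oxidises succinate, had 78.7, 72.2 and 77.2 FPKM in the KO libraries and 86.8, 82.5 and 84.2 FPKM in the WT libraries and did not pass (log2 difference -0.15, limma adjusted p = 0.076; 0.046 without KO1). Sdhb, the iron-sulfur subunit, had 46.0, 46.0 and 56.5 FPKM in the KO libraries and 51.2, 46.7 and 52.2 FPKM in the WT libraries. Sdhd, the second anchor, had 111, 98.7 and 112 FPKM in the KO libraries and 115, 109 and 114 FPKM in the WT libraries. The groups overlap in Sdhb and Sdhd, with log2 differences of -0.02 and -0.07.

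Complexes III and V, the cytochrome bc1 complex and ATP synthase, had no called gene. None of the 8 complex III genes and none of the 15 complex V genes passed in limma, and none had an unadjusted p under 0.05. The medians were -0.04 and -0.06 log2 units. In complex III the groups overlapped in all 8 genes. Uqcrq, a small subunit near the ubiquinone-binding site, had 154, 150 and 180 FPKM in KO1, KO2 and KO3 and 163, 145 and 167 FPKM in WT1, WT2 and WT3, a log2 difference of 0.02 with a 95% interval from -0.20 to 0.25. Uqcrb, another small subunit, had 138, 130 and 155 FPKM in the KO libraries and 162, 148 and 164 FPKM in the WT libraries (log2 difference -0.17, limma adjusted p = 0.15). In both genes KO3 was the highest KO library. Summed over complex III the level was 842, 800 and 967 FPKM in KO1, KO2 and KO3 and 940, 859 and 922 FPKM in WT1, WT2 and WT3, so that the KO libraries lay on both sides of the WT range.

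ATP synthase genes were the most abundant of the chain. Atp5b, the catalytic beta subunit of the F1 head, had 290, 298 and 342 FPKM in KO1, KO2 and KO3 and 309, 288 and 307 FPKM in WT1, WT2 and WT3 (log2 difference 0.04, 95% interval from -0.17 to 0.25). Atp5l, subunit g of the membrane part, had 353, 308 and 333 FPKM in the KO libraries and 353, 339 and 363 FPKM in the WT libraries (log2 difference -0.09, 95% interval from -0.29 to 0.11). The groups overlapped in both. For 14 of the 15 genes the 95% interval lay within 0.5 log2 units of 0. The exception was Atp5o, a subunit of the peripheral stalk, with 60.0, 80.2 and 104 FPKM in KO1, KO2 and KO3 and 69.4, 65.9 and 71.8 FPKM in WT1, WT2 and WT3. KO1 was below all WT libraries and KO2 and KO3 above them, and the log2 difference was 0.20 with a limma adjusted p of 0.39. Without KO1 it was called, at 0.40 (limma adjusted p = 0.025), and it was the 1 complex III or V gene called in any alternative. The 3 genes Atp5g1, Atp5g2 and Atp5g3 encode the same mature c-ring protein with different import sequences. Atp5g1 gave 18.9%, 19.8% and 21.1% of their summed FPKM in KO1, KO2 and KO3 and 21.3%, 19.1% and 21.8% in WT1, WT2 and WT3. Atp5g2 gave 40.6%, 37.0% and 36.2% in the KO libraries and 38.8%, 41.7% and 38.6% in the WT libraries. Atp5g3 gave 40.5%, 43.1% and 42.7% in the KO libraries and 40.0%, 39.3% and 39.6% in the WT libraries. The groups overlapped for Atp5g1 and Atp5g2, while the Atp5g3 share was above every WT library in each KO library.

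In 5 of the 86 genes KO2 and KO3 both lay above the other 4 libraries (5.81%, against 21.2% of all tested genes), and in 19 both lay below (22.1%, against 25.2%). The 5 were Ndufaf1, Ndufaf4, Atp5o, Cox5a and Ndufa4, and were named after their values were seen. Cox5a, a nuclear subunit of complex IV, had 59.0, 72.8 and 77.2 FPKM in KO1, KO2 and KO3 and 59.8, 56.2 and 58.0 FPKM in WT1, WT2 and WT3. KO1 was at the WT level and the other two KO libraries were above it (log2 difference 0.25, limma adjusted p = 0.084), and without KO1 it was called at 0.37 (limma adjusted p = 0.0035). The part of the acinar RNA in these genes was not tested, beyond the values with KO1 alone and with the acinar covariate.

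Among the 15 tested genes counted with complex IV, cytochrome c oxidase, 1 was called. This was Ndufa4l2, placed here as a paralog of the subunit Ndufa4, and no other gene of the complex was called. Cox8a, a small structural subunit and the most abundant of its rows, had 325, 266 and 283 FPKM in KO1, KO2 and KO3 and 367, 347 and 341 FPKM in WT1, WT2 and WT3. The groups did not overlap, but the gene did not pass (log2 difference -0.27, limma adjusted p = 0.059), and it passed without KO1 (limma adjusted p = 0.0080). Cox4i1, the housekeeping form of a regulatory subunit, had 193, 193 and 219 FPKM in the KO libraries and 202, 184 and 197 FPKM in the WT libraries (log2 difference 0.05, 95% interval from -0.14 to 0.24). Cox6a1 had 253, 225 and 261 FPKM in the KO libraries and 266, 253 and 262 FPKM in the WT libraries, and Cox7a2 had 98.5, 89.4 and 105 FPKM in the KO libraries and 110, 100 and 109 FPKM in the WT libraries. Both overlap between the groups. Cox6b1 had 172, 156 and 189 FPKM in the KO libraries and 184, 169 and 190 FPKM in the WT libraries, and Cox7b had 53.2, 55.5 and 66.8 FPKM in the KO libraries and 59.4, 53.4 and 57.9 FPKM in the WT libraries. Cox7a2l had 240, 199 and 249 FPKM in KO1, KO2 and KO3 and 271, 278 and 262 FPKM in WT1, WT2 and WT3. Every KO library was lower, and the gene did not pass (log2 difference -0.24, limma adjusted p = 0.088). Summed over complex IV the level was 1853, 1683 and 1913 FPKM in the KO libraries and 1989, 1849 and 1956 FPKM in the WT libraries.

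The called gene counted with complex IV, Ndufa4l2, is a paralog of the subunit Ndufa4 that is switched on by hypoxia-inducible factor. It had 1.78, 1.54 and 0.614 FPKM in KO1, KO2 and KO3 and 3.61, 3.04 and 3.35 FPKM in WT1, WT2 and WT3. The highest KO library was well below the lowest WT library, and the log2 difference of -0.94 ± 0.20 (SE, limma adjusted p = 0.012) was the furthest from 0 among the 86 genes. KO1 alone gave -0.64 (limma adjusted p = 0.0099), and without WT1 the difference was -0.90 with a limma adjusted p of 0.051. Ndufa4 itself had 82.0, 91.8 and 107 FPKM in the KO libraries and 89.6, 75.9 and 87.2 FPKM in the WT libraries, which overlap. Ndufa4l2 gave 2.12%, 1.65% and 0.569% of the summed FPKM of the pair in KO1, KO2 and KO3, against 3.88%, 3.85% and 3.70% in WT1, WT2 and WT3. Cox4i2, the paralog of Cox4i1 that is abundant in lung, had 1.12, 1.05 and 0.481 FPKM in the KO libraries and 2.30, 1.03 and 1.62 FPKM in the WT libraries and did not pass (log2 difference -0.48, limma adjusted p = 0.11). Stellate and smooth muscle markers summed to 43.0, 38.9 and 31.3 FPKM in KO1, KO2 and KO3 and 41.9, 40.1 and 44.1 FPKM in WT1, WT2 and WT3. Of 8 tested, 2 (25%, background 19.6%) were called lower, Acta2 and Pdgfrb, and none of the 13 was at 0 in any library. Endothelial markers summed to 144, 167 and 142 FPKM in the KO libraries and 179, 151 and 194 FPKM in the WT libraries. The part of either cell type in the values of Ndufa4l2 and Cox4i2 was not tested.

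Muscle isoforms of complex IV did not pass the test. Cox6a2, the heart and skeletal muscle isoform of Cox6a1, was well expressed in islets, at 80.9, 53.0 and 59.6 FPKM in KO1, KO2 and KO3 and 63.7, 55.0 and 68.8 FPKM in WT1, WT2 and WT3. It gave 24.2%, 19.1% and 18.6% of the summed FPKM of the pair in the KO libraries and 19.3%, 17.9% and 20.8% in the WT libraries, and KO1 was the highest library. Cox7a1, the muscle isoform of Cox7a2, had 2.73, 1.09 and 0.974 FPKM in the KO libraries and 2.09, 1.77 and 1.50 FPKM in the WT libraries, again with KO1 highest and the other two KO libraries lowest. Without KO1 Cox7a1 was called at -0.45 (limma adjusted p = 0.025). Cox8c was listed at 0 in all 6 libraries. Cox6b2, Cox7b2 and Cox8b were under 1 FPKM on average and were not tested, and these 4 genes are the ones left out of the fit.

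**Figure D4:**
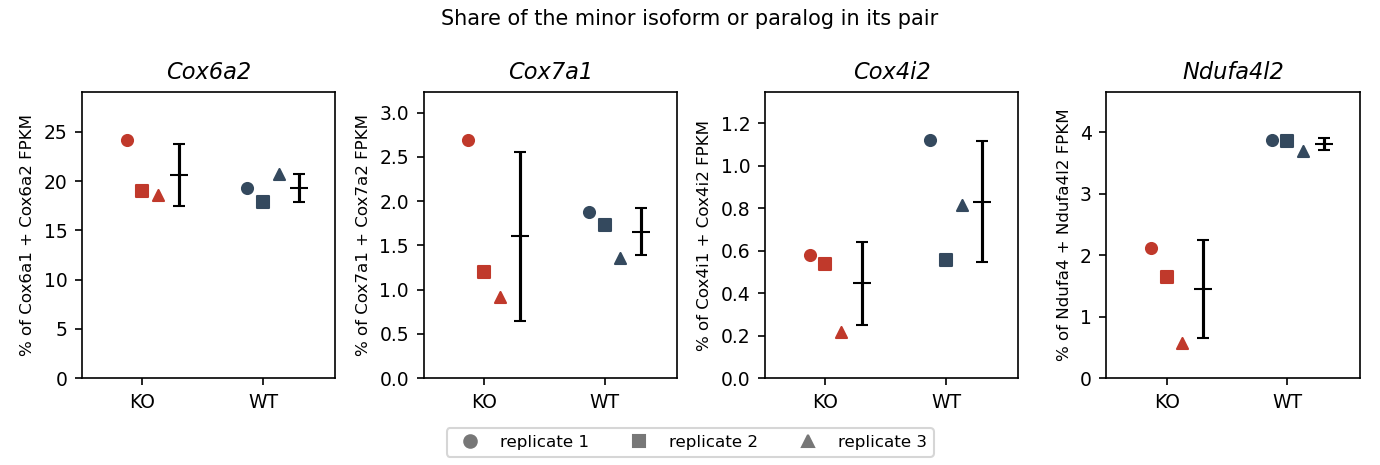
Share of the minor isoform or paralog in the summed FPKM of its pair, in percent, for each library (KO red, left; WT blue, right; mean ± SD, n = 3 each). Ndufa4l2 is below the WT libraries in every KO library, Cox6a2 and Cox7a1 overlap between the groups with KO1 highest, and Cox4i2 overlaps.

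Of the 3 rows that matched by name, Atp5s was called. It had 4.55, 3.40 and 4.35 FPKM in KO1, KO2 and KO3 and 6.68, 6.41 and 5.45 FPKM in WT1, WT2 and WT3, with no overlap (log2 difference -0.50 ± 0.11 SE, limma adjusted p = 0.014). In KO1 alone it was -0.37 (limma adjusted p = 0.060), with the acinar covariate the limma adjusted p was 0.063, without WT1 0.061 and without WT2 0.052. Cox4nb and Atp5sl had log2 differences of 0.06 and 0.00 and overlapping groups.

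Assembly factors outside the Ndufaf series were called lower more often than higher with all 6 libraries. Of 45 tested genes from a list of factors that build complexes I to V, 14 were called lower (31.1%, background 19.6%) and 3 higher (6.67%, background 20.3%), with a median of -0.18 log2 units. The count lower was 4 without WT1 (8.89%, background 9.32%), 8 without WT2 (17.8%, 12.6%) and 5 without WT3 (11.1%, 9.51%). It was 21 without KO1 (46.7%, 24.3%), 8 without KO2 (17.8%, 14.1%) and 10 without KO3 (22.2%, 16.8%). In KO1 alone 5 were lower, a share of 11.1% beside a background of 11.5%, and with the acinar covariate 6 were lower, 13.3% beside 10.7%. Sdhaf1, which helps insert the iron-sulfur clusters of Sdhb, had 15.6, 14.7 and 14.4 FPKM in KO1, KO2 and KO3 and 18.3, 18.5 and 19.6 FPKM in WT1, WT2 and WT3 (log2 difference -0.32, limma adjusted p = 0.0065). Lrpprc, which stabilises mitochondrial messenger RNAs, had 10.7, 11.0 and 11.9 FPKM in the KO libraries and 14.2, 14.1 and 16.1 FPKM in the WT libraries (log2 difference -0.38, limma adjusted p = 0.0082). The groups did not overlap in either, and both calls were kept in all 18 alternatives. Foxred1, a complex I assembly factor, had 6.57, 6.10 and 6.14 FPKM in the KO libraries and 7.91, 8.11 and 8.97 FPKM in the WT libraries (log2 difference -0.36, limma adjusted p = 0.0079; 0.057 in KO1 alone). The 3 higher genes were Cox11, Cox19 and Fastkd1. Cox11 and Cox19 take part in copper handling for complex IV. They were named because they were few, after their values were seen.

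Among electron carriers and their enzymes outside the symbol patterns, 4 of 19 tested (21.1%) were called lower, beside the background of 19.6%, and none higher, with a median of -0.14 log2 units. KO1 alone gave 4 lower (background 11.5%), and the acinar covariate 2 (background 10.7%). Gpd2, the glycerol-3-phosphate dehydrogenase that passes electrons from cytosolic NADH to ubiquinone and is abundant in beta cells, had 15.7, 13.9 and 16.0 FPKM in KO1, KO2 and KO3 and 24.5, 23.5 and 26.6 FPKM in WT1, WT2 and WT3. The KO libraries were all far below the WT libraries, with a log2 difference of -0.68 (limma adjusted p = 0.0013), and the call was kept in all 18 alternatives. Atpif1, the inhibitor of ATP synthase hydrolysis, had 133, 97.3 and 112 FPKM in the KO libraries and 157, 158 and 166 FPKM in the WT libraries (log2 difference -0.50, limma adjusted p = 0.014). It was the clearest difference around complex V, but the limma adjusted p was 0.052 with the acinar covariate, 0.0503 without WT1 and 0.058 without WT3. Coq7, an enzyme of ubiquinone synthesis, had a log2 difference of -0.35 (limma adjusted p = 0.040) and was lost in 11 of 18 alternatives, at 0.099 without WT1, 0.11 without WT2, 0.11 without WT3, 0.094 without KO2 and 0.066 without KO3.

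Enzymes that feed the chain moved in both directions. Of 26 tested genes of the tricarboxylic acid cycle and pyruvate dehydrogenase, 6 were lower (23.1%, background 19.6%) and 2 higher (7.69%, background 20.3%), with a median of -0.09 log2 units. KO1 alone gave 1 lower (background 11.5%) and 2 higher (14.8%), and the acinar covariate 3 lower (10.7%) and 2 higher (14.1%). Pdhx, a structural protein of the pyruvate dehydrogenase complex, had 5.58, 5.53 and 5.61 FPKM in KO1, KO2 and KO3 and 3.96, 3.31 and 3.62 FPKM in WT1, WT2 and WT3 (log2 difference 0.51, limma adjusted p = 0.0033). Dlst, a subunit of 2-oxoglutarate dehydrogenase, had 39.7, 40.0 and 39.2 FPKM in the KO libraries and 32.0, 32.5 and 31.7 FPKM in the WT libraries (log2 difference 0.30, limma adjusted p = 0.0041). In both genes the 3 KO libraries were almost equal and above WT. The Dlst call was lost when values were scaled to equal sums outside the acinar list (limma adjusted p = 0.16). Idh3a, the catalytic subunit of NAD-dependent isocitrate dehydrogenase, had 19.5, 18.3 and 18.5 FPKM in the KO libraries and 23.9, 22.1 and 22.8 FPKM in the WT libraries (log2 difference -0.28, limma adjusted p = 0.0094; 0.063 in KO1 alone).

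A list of regulators of mitochondrial genes was called higher more often than lower. It holds factors that act on nuclear genes and factors of the replication and transcription of mitochondrial DNA. Of 22 tested, 8 were higher (36.4%, background 20.3%) and 3 lower (13.6%, background 19.6%), with a median of 0.13 log2 units. With a library left out, the count higher was lowest without WT1 or WT3, at 3 (13.6%) in each. The background was then 11.9% and 12%. It was highest without KO1, at 7 (31.8%, background 24.8%). KO1 alone gave 5 higher (22.7%, background 14.8%) and 1 lower, and the acinar covariate 3 higher (13.6%, background 14.1%) and 1 lower. Nrf1, the gene of NRF1, had 8.21, 8.72 and 8.67 FPKM in KO1, KO2 and KO3. In WT1, WT2 and WT3 it had 5.90, 5.96 and 6.59 FPKM (log2 difference 0.42, limma adjusted p = 0.0041). Gabpb1, which pairs with the ETS protein Gabpa to form GABP, had 10.8, 11.6 and 13.6 FPKM in the KO libraries and 7.56, 8.50 and 7.19 FPKM in the WT libraries (log2 difference 0.57, limma adjusted p = 0.0055). Every KO library was above every WT library in both genes. Tfb2m, a transcription factor of mitochondrial DNA, had 12.2, 11.8 and 14.2 FPKM in the KO libraries and 8.77, 9.49 and 8.95 FPKM in the WT libraries (log2 difference 0.44, limma adjusted p = 0.0061). All 3 calls were kept in all 18 alternatives. Ppargc1a, a coactivator of mitochondrial gene programmes that was named after its values were seen, had 8.43, 4.89 and 6.64 FPKM in the KO libraries and 2.95, 5.36 and 2.42 FPKM in the WT libraries. The groups overlap and it did not pass (log2 difference 0.77, limma adjusted p = 0.051). The 3 lower genes, Polg2, Polrmt and Ssbp1, act in replication or transcription of mitochondrial DNA and were named after their values were seen.

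**Figure D5:**
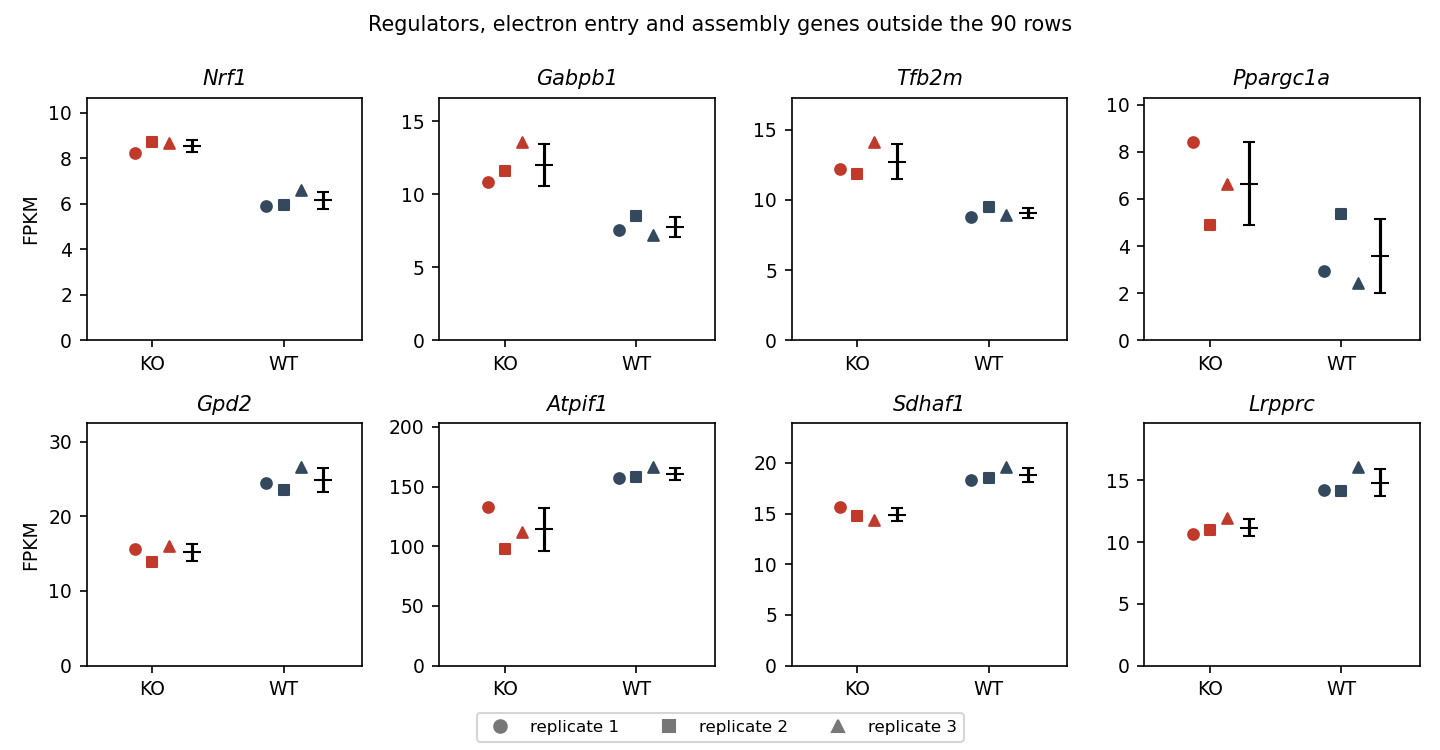
FPKM in each library of regulators (Nrf1, Gabpb1, Tfb2m, Ppargc1a), electron entry and ATP synthase control (Gpd2, Atpif1) and assembly factors (Sdhaf1, Lrpprc) outside the 90 rows (KO red, left; WT blue, right; mean ± SD, n = 3 each). The groups do not overlap in any of these genes except Ppargc1a, and the 3 other regulators are higher and the remaining 4 genes lower in KO.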

How the data were processed

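Total RNA of pancreatic islets was sequenced in 3 KO and 3 WT libraries. Per the submitters' processing notes, reads were handled with TopHat2 2.0.8b and Cuffdiff 2.1.1 on mm10, and the deposited tables give 1 value per gene symbol. The values were read as FPKM, since the authors' tables, made with Cuffdiff, carry no counts. Which annotation, strand setting and library scaling were used is not given in the sources used here, and depth is unknown.

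Values were transformed to log2(FPKM + 1), rows with a mean of at least 1 FPKM were kept, and KO was set against WT with limma 3.58.1 in R 4.3.3 (trended prior, two-sided, 4 residual degrees of freedom). P-values were adjusted by the Benjamini-Hochberg method over 11669 rows with a threshold of 0.05. Differences understate the change of genes near 1 FPKM. An exact permutation test of 3 against 3 cannot give less than 0.1, so none is reported. Tables and figures used Python 3.11.15, pandas 2.3.3 and matplotlib 3.10.9. The fit was tested on simulated data.

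Genes named in the text were, in each complex, up to 4 called genes of the smallest p or, where none was called, the 2 most abundant, every called gene that moved by at least 0.5 log2 units, the isoform sets and all complex II genes, and in each other list up to 3 called genes. The genes, lists and tests were chosen with earlier results of these data known. Alternatives covered the pseudocount, the filter, 5 scalings or priors, array weights, a replicate block, an acinar covariate (mean log2 level of 30 acinar rows), KO1 alone, and leaving out each library.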

Additional observations from a re-analysis of the deposited data

How the results depend on the processing

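The count of respiratory chain genes called was 14 as reported. It was 9 with values scaled to equal sums outside the acinar list, 24 with array weights (5468 genes in all, 46.9%), 6 with the acinar covariate and 7 with KO1 alone against WT, and it ranged from 4 to 21 when each library was left out. The count over all genes, 4657 as reported, was 3055 under that scaling, 2893 with the acinar covariate and 3013 with KO1 alone, and ranged from 2482 to 5730 with a library left out. The same scaling also changed the split over all genes, to 1812 lower and 1243 higher against 2289 lower and 2368 higher as reported, and moved the median of all genes to -0.09 and that of the respiratory chain genes to -0.20 log2 units. That median ranged from -0.15 to -0.05 with a library left out. Scaling to equal sums outside acinar and insulin rows, chosen after seeing the data, gave 11 genes called, and leaving out Cox4nb, Atp5s and Atp5sl, also chosen then, gave 13 of 83. No called gene changed sign, and the median of the respiratory chain genes was negative in every alternative, whereas that of all genes was 0.0031 with no filter on low values. The causes were not tested.

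KO and WT libraries share replicate numbers, and whether these pair the samples is not known. Same-numbered pairs had correlations of -0.21, -0.089 and 0.028 of their deviations, and no KO library correlated best with its own number. KO1 was best with WT2 (0.20), and KO2 and KO3 with WT1 (0.12 and 0.14). Among the WT libraries WT3 alone correlated best with its own number. With so few libraries and the acinar RNA of KO2 and KO3, these correlations can neither show nor exclude a pairing. The main fit used none. With a replicate block 12 respiratory chain genes and 3865 genes in all were called, with a median of -0.10 log2 units. Depth is unknown, and the few libraries and the acinar RNA of KO2 and KO3 limit what these values can show.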
